A study of Mus musculus with 6 samples.

Results

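The nuclear-encoded subunits of the mitochondrial respiratory chain and ATP synthase were compared between Ly6C+ and Ly6C- fibroblasts of mouse breast tumours. Members were chosen by gene symbol alone, as every gene of the table whose symbol names a structural subunit of complexes I to V. The patterns matched 80 symbols, and 2 isoforms, Ndufa4l2 and Cox4i2, were left out by the rule, so that 78 of the 12235 genes in the table were members. These were 35 genes of complex I, 4 of complex II, 8 of complex III, 14 of complex IV (Ndufa4 was placed here) and 17 of complex V. No measured value entered the choice. Of the 78 members, 74 had a mean normalized count of at least 5 over the 6 libraries and were tested.

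The cells came from tumours grown by injecting 100000 4T1 mouse mammary carcinoma cells orthotopically, into a mammary fat pad, in BALB/c females aged 8 weeks; the labels name the injected line once as 4T1-GFP and once as 4T1-luc. Cancer-associated fibroblasts (CAFs) were sorted as live cells negative for Ter119, CD45 and EpCAM and positive for podoplanin (PDPN), and were then divided by surface Ly6C. Each of the groups, Ly6C+ and Ly6C-, had 3 libraries of mRNA 3' ends, and every library came from tumour-bearing females of the same strain and age. The labels do not say whether the libraries came from separate mice, so the p-values measure the spread between these libraries, which may be technical.

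The respiratory chain sits in the inner mitochondrial membrane. Complexes I and II pass electrons from NADH and succinate to ubiquinone, complex III passes them on to cytochrome c, and complex IV, cytochrome c oxidase, hands them to oxygen. Complexes I, III and IV pump protons, and complex V, the ATP synthase, uses the proton gradient to make ATP. Most subunits are encoded in the nucleus, and their promoters are known for binding sites of ETS factors such as GABP, of NRF1, and of YY1. The subunits encoded in mitochondrial DNA, and cytochrome c (Cycs), were not analysed here.

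Promoter sequence was available from RefSeq (GRCm38.p6) for 65 of the 78 members, as 70 windows running from 250 bases before to 50 bases after an annotated gene start. The windows of Ndufa12 and Atp5b are shown because these genes passed the test below; no window was available for Uqcrc2, the other member that did. The window of Atp5j, a gene chosen after its values were seen, is shown as an example with matches to the letters of 3 factors. The windows of Atp5k, Atp5l and Uqcr11 matched at least as many and are not shown. Atp5j has another window, at chr16:84835576-84835875 on the minus strand, which holds none of the 5 strings searched and is not shown. Lower case is the reference strand of the gene, 5' to 3', and capitals mark matches on either strand. Ndufa12 lies on the plus strand (chr10:94198785-94199084), Atp5b on the plus strand (chr10:128083057-128083356) and Atp5j on the minus strand (chr16:84834927-84835226).
Ndufa12: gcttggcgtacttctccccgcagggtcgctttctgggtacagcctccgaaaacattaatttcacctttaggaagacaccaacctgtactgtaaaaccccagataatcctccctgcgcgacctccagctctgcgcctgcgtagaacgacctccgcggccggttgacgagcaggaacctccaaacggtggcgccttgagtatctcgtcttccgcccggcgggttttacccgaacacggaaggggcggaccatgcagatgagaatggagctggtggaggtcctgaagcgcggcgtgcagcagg
Atp5b: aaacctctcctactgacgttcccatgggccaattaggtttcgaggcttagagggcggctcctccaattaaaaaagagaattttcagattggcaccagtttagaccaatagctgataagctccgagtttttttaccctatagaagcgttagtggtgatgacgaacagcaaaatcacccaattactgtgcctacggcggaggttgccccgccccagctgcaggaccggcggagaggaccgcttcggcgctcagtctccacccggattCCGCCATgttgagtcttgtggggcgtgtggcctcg
Atp5j: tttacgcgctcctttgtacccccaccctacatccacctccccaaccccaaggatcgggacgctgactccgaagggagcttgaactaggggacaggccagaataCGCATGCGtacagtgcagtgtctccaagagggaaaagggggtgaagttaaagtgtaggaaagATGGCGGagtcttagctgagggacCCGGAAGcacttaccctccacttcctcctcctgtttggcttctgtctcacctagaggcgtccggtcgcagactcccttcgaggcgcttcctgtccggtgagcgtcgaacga

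The letters searched, on both strands, were CCGGAAG for ETS factors, GCATGCG for NRF1, ATGGCGG for YY1, AAGGTCA for nuclear receptors and ACGTG for hypoxia-inducible factors; none of these strings contains another. The Atp5b window held 1 match, to the YY1 letters on the reverse strand, beginning 15 bases after the gene start. The Atp5j window held the ETS letters, the NRF1 letters on both strands at overlapping positions, and the YY1 letters. The Ndufa12 window held none of the 5 strings. The ETS letters occurred in 17 member windows (24.3%), against 16.7% of the 12383 windows of genes in the table. NRF1 letters occurred in 11 member windows (15.7%, against 5.90%), and YY1 letters in 11 windows of 10 members (15.7%, against 7.59%). Nuclear receptor letters occurred in 7 member windows (10%, against 3.22%). The hypoxia letters occurred in 17 member windows (24.3%, against 25.2%). These matches describe the letters in the windows and were not tested against the expression values.

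Sequencing depth was between 2150531 and 2818269 reads in the Ly6C+ libraries and between 1176909 and 1721480 in the Ly6C- libraries, so 1 read corresponded to 0.610 to 1.31 normalized counts. The sorted marker followed the labels: Ly6c1, which encodes a Ly6C antigen, had 3849, 3142 and 2316 normalized counts in the Ly6C+ libraries and 88.6, 77.4 and 65.6 in the Ly6C- libraries. Pdpn, Col1a1 and Col1a2, which mark the sorted fibroblasts, were detected in all 6 libraries. Of 11 fibroblast and sort markers, 6 were called higher in Ly6C+ and 1 lower by limma. That was 54.5% and 9.09%, against 9.41% and 7.66% of all tested genes. Their summed level was 71525 to 78790 normalized counts in Ly6C+ and 46989 to 61052 in Ly6C-. Ly6C+ library 1 stood apart from the others of its group in 2 neutrophil genes, with 179 normalized counts of S100a8 and 478 of S100a9, where no other library exceeded 4.51 of either.

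Few respiratory chain subunits differed between the Ly6C+ and Ly6C- cells beyond the spread of the libraries, and those that did were lower in Ly6C+. Of the 74 tested members, 3 fell in Ly6C+ cells and none rose (limma on log2 normalized counts + 1, Benjamini-Hochberg adjusted p under 0.05 over all 9646 tested genes). Among all tested genes, 7.66% were called lower and 9.41% higher. The 3 members were Ndufa12 of complex I, Uqcrc2 of complex III and Atp5b of complex V. The count of lower members was 0 without Ly6C+ library 1, Ly6C+ library 2 or Ly6C- library 2. Calls over all genes then fell from 1647 to 1129, 1260 and 1126, in that order. Without Ly6C- library 1 there were 5 lower and 2 higher members, and 1618 calls over all genes. At an unadjusted p under 0.05 there were 8 lower members (10.8%) and 2 higher ones (2.70%), against 13.2% and 15.3% of all tested genes. With edgeR and DESeq2 on the recovered reads, no member was higher and 4 were lower, with backgrounds of 8.1% lower and 9.68% higher by edgeR, and of 7.42% lower and 8.64% higher by DESeq2. In bulk libraries, fewer cells of a type with high levels cannot be told apart from less RNA per cell.

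The log2 fold changes of the members, Ly6C+ minus Ly6C-, had a median of -0.10, against -0.00070 for all tested genes. They lay below 0 for 48 of 74 members (64.9%), against 50.1% of all tested genes. The members spanned -1.28 to 1.48, and 64 of the 74 lay within 0.5 of 0. The 95% confidence interval lay wholly within a fold of 2 in either direction for 63 members (85.1%), against 49.2% of all tested genes. Intervals narrow as read counts rise, so the same share was taken by level. Among genes with at least 300 mean normalized counts, the interval lay within those bounds for 34 of 35 members (97.1%) and for 63.3% of all genes. Among genes with 100 to under 300 it did so for 23 of 26 members (88.5%) and 71.7% of all genes. Among those with 5 to under 100 it did so for 6 of 13 members (46.2%) and 42.3% of all genes. A large fold change also puts an interval outside these bounds, however narrow it is. At the highest level the median SE was 0.169 for members and 0.181 for all genes. At the middle level it was 0.195 and 0.196, and at the lowest 0.340 and 0.309.

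The Ly6C+ and Ly6C- libraries did not overlap for 15 tested members that were lower in Ly6C+ (20.3%, against 16.1% of all tested genes). They did not overlap for 1 tested member that was higher, Ndufa3 (1.35%, against 17.1% of all tested genes). Among genes with at least 300 mean normalized counts, 7 of 35 members were lower without overlap, against 19.7% of all genes. With 100 to under 300 it was 7 of 26 members (26.9%, against 21.4%). With 5 to under 100 it was 1 of 13 (7.69%, against 14.4%). These shares were not tested against each other. The lower members were Ndufa9, Ndufa12, Ndufb9, Ndufs4, Ndufs8 and Ndufv1 of complex I, Sdhb of complex II, Uqcr10, Uqcrc1, Uqcrc2 and Uqcrfs1 of complex III, Cox5a of complex IV, and Atp5a1, Atp5b and Atp5h of complex V.

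**Figure D1:**
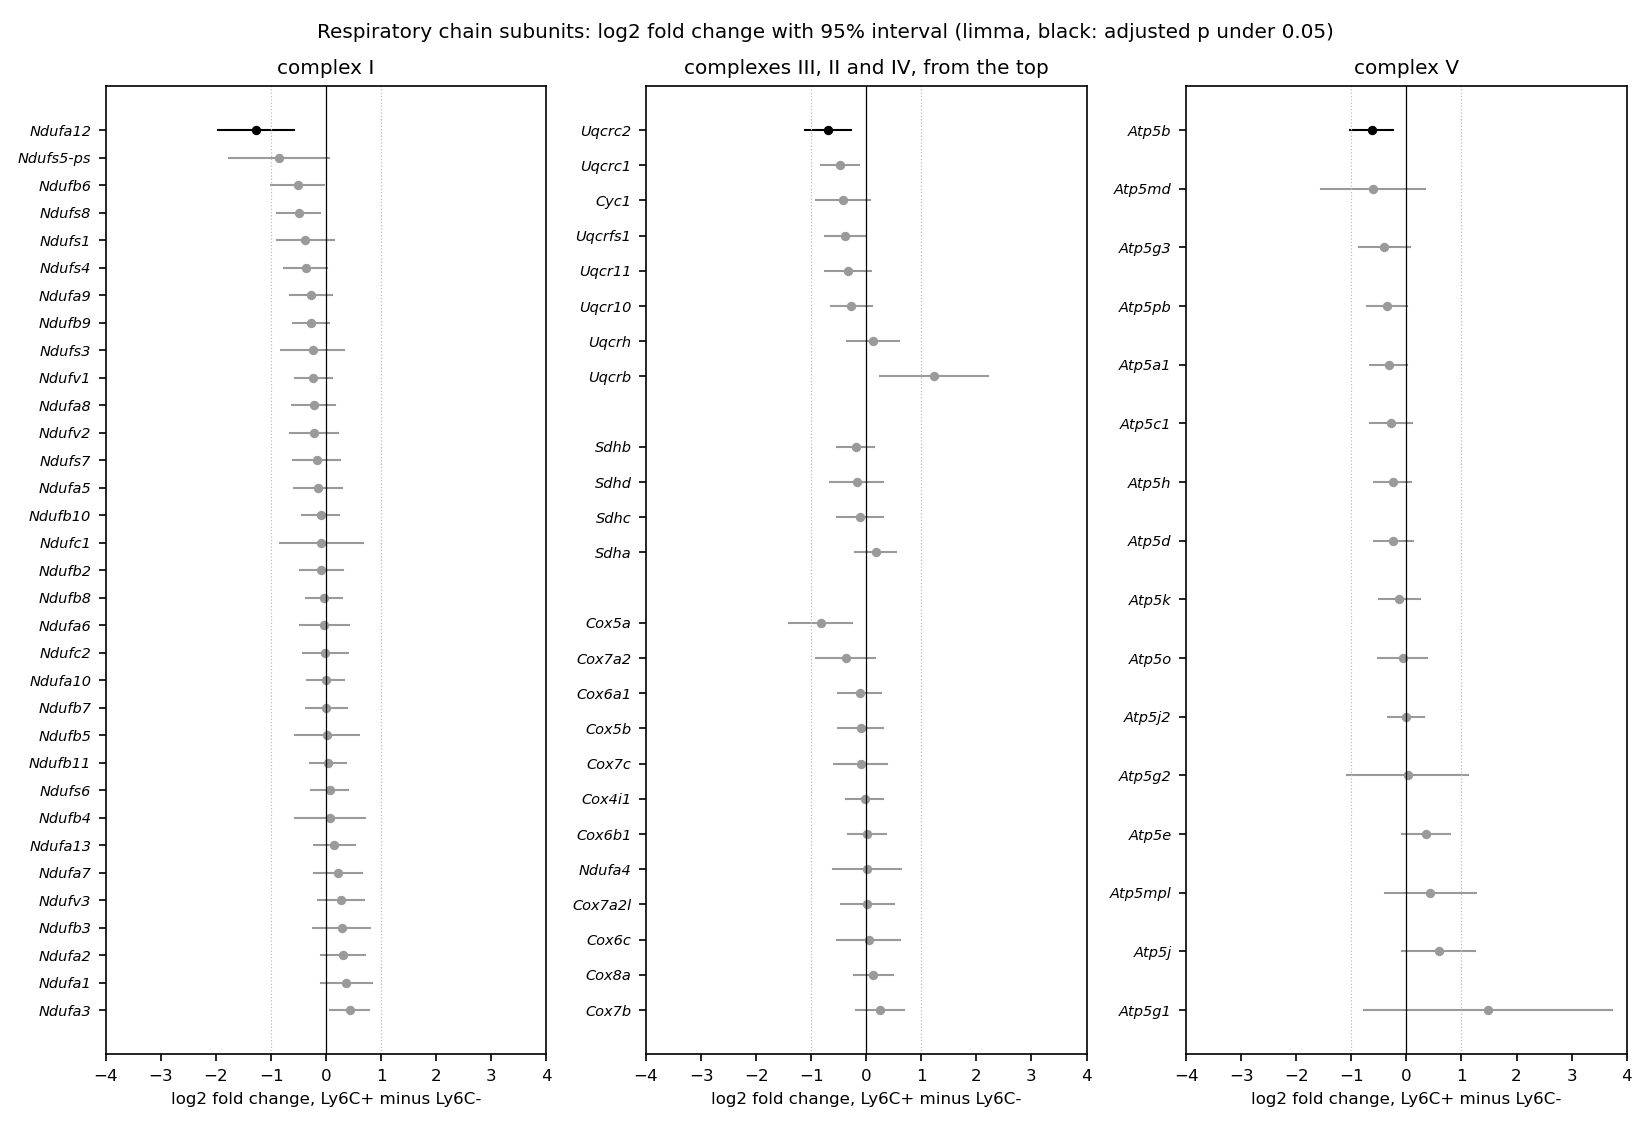
Log2 fold change (Ly6C+ minus Ly6C-, horizontal axis) of 73 of the 74 tested members, arranged by complex, with 95% confidence intervals from limma as bars; black points passed the test and dotted lines mark a fold of 2. The 3 black points, Ndufa12, Uqcrc2 and Atp5b, all lie below 0, and most other members lie close to 0.

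Complex I, the NADH dehydrogenase that takes up most of the electrons entering the chain, changed in 1 of its 34 tested members. This was 2.94% called lower, against 7.66% of all tested genes. Its median log2 fold change was -0.09, and 22 of the 34 lay below 0 (64.7%, against 50.1% of all tested genes). That member was Ndufa12, an accessory subunit that joins the peripheral arm late in assembly. Ndufa12 (chr10:94198720-94221443, plus strand, mm10) had 29.9, 34.6 and 71.1 normalized counts in Ly6C+ and 83.7, 99.5 and 132 in Ly6C-. Every Ly6C- library was above every Ly6C+ library, and the Ly6C+ libraries differed among themselves, library 3 being the highest. The means were 45.2 ± 22.6 and 105 ± 24.9 (SD, n = 3 each), a log2 fold change of -1.28 (SE 0.31, 95% confidence interval -1.97 to -0.59, limma adjusted p = 0.0160). The call was lost when Ly6C+ library 1 (adjusted p = 0.0776), Ly6C+ library 2 (0.0664) or Ly6C- library 2 (0.0531) was left out.

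The 7 measured core subunits of complex I carry its flavin, its iron-sulphur clusters and the quinone site. All 7 had log2 fold changes below 0, from -0.50 to -0.17 with a median of -0.25, and none passed the test. This grouping was made after the values had been seen. Ndufs8, an iron-sulphur subunit beside the quinone site, had 162, 133 and 143 normalized counts in Ly6C+ and 207, 237 and 178 in Ly6C-. Its groups did not overlap, and its log2 fold change was -0.50 (95% confidence interval -0.89 to -0.11, limma adjusted p = 0.0825); it passed with library totals (adjusted p = 0.0216) and without Ly6C- library 3 (0.0469). Ndufs1, the large iron-sulphur subunit of the NADH-oxidising module, had a value of -0.38. Ndufv1, which binds the flavin, and its partner Ndufv2 both had a value of -0.23, and Ndufs7, which holds the last iron-sulphur cluster before quinone, had -0.17.

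The 27 tested accessory subunits of complex I surround this core, and 15 of them lay below 0, with a median of -0.01. Ndufa3 was the highest, with 279, 271 and 253 normalized counts in Ly6C+ and 218, 180.3 and 201 in Ly6C-. Its groups did not overlap, in the direction opposite to Ndufa12, but it missed the test (log2 fold change 0.43, 95% confidence interval 0.07 to 0.78, limma adjusted p = 0.0986) and passed it in none of the 17 alternative analyses. Ndufa13, whose deposited values were the highest of complex I (they are not scaled by length), had 656, 631 and 751 in Ly6C+ and 511, 659 and 678 in Ly6C-, which overlapped. Ndufa10, chosen after its values were seen as an example of a level subunit, had 188, 188 and 191 in Ly6C+ and 193, 196 and 182 in Ly6C-. Its log2 fold change of -0.01 had a 95% confidence interval of -0.35 to 0.33. Ndufa11, a membrane-arm subunit, was not tested: it had 9 reads in all Ly6C+ libraries and 2 in all Ly6C- libraries. The symbol Ndufs5-ps, a pseudogene of Ndufs5, also matched the rule, and its log2 fold change was -0.86 (limma adjusted p = 0.203).

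Complex II, succinate dehydrogenase, shares its reaction with the tricarboxylic acid cycle and has 4 subunits, all nuclear-encoded. None passed the test, and the median log2 fold change was -0.14. Sdha, the flavoprotein, had 142, 141 and 144 normalized counts in Ly6C+ and 119, 118 and 143 in Ly6C-. Its Ly6C+ libraries were nearly level, and Ly6C- library 3 lay within their range (log2 fold change 0.17, 95% confidence interval -0.20 to 0.54). Sdhb, the iron-sulphur subunit, had 492, 443 and 508 in Ly6C+ and 528, 554 and 569 in Ly6C-. Its groups did not overlap, yet the log2 fold change was only -0.19 (95% confidence interval -0.52 to 0.13, limma adjusted p = 0.443). The membrane anchors Sdhc and Sdhd had log2 fold changes of -0.11 and -0.17, with overlapping groups.

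Complex III, the cytochrome bc1 complex, had the lowest median of the 5 complexes, -0.36. Of its 8 members, 6 lay below 0 (75%, against 50.1% of all tested genes). The share called lower, 1 of 8, was 12.5%, against 7.66% of all tested genes. Uqcrc2, one of its large core proteins (chr7:120635176-120659524, plus strand, mm10), had 107, 110.5 and 147 normalized counts in Ly6C+ and 173, 204 and 212 in Ly6C-. The groups were well separated, at 122 ± 21.9 and 197 ± 20.7 (SD, n = 3 each). The log2 fold change was -0.70 (SE 0.19, 95% confidence interval -1.11 to -0.29, limma adjusted p = 0.0249). The call was lost without Ly6C+ library 1 (adjusted p = 0.0942), Ly6C+ library 2 (0.101), Ly6C- library 2 (0.103) or Ly6C- library 3 (0.0565). Another gene, Pdzd9, overlaps Uqcrc2 on the other strand, and strand use in the counting is not given in the sources used here.

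Uqcrc1, the partner of Uqcrc2 in the core, had 188, 187 and 196 normalized counts in Ly6C+ and 275, 287 and 239.9 in Ly6C-. The groups did not overlap, and the value of -0.48 (95% confidence interval -0.83 to -0.13) missed the threshold at a limma adjusted p of 0.0620. Uqcrc1 passed in 4 of 17 alternatives: library totals (adjusted p = 0.0148), the replicate number as a block (limma 0.0390, edgeR 0.0456) and without Ly6C- library 3 (0.0463). Uqcrfs1, the Rieske iron-sulphur protein, also had groups that did not overlap, at a log2 fold change of -0.38 (limma adjusted p = 0.165, and 0.0334 with library totals). Cyc1, cytochrome c1, had 290.3, 238 and 275 in Ly6C+ and 273, 334 and 503 in Ly6C-, with a log2 fold change of -0.42 (limma adjusted p = 0.245). Only Ly6C- library 3 of Cyc1 stood far above the rest. These 4 catalytic and core proteins all lay below 0, with a median of -0.45, in a split of the complex that was not planned. The 4 small subunits were mixed, with a median of -0.07: Uqcr11 and Uqcr10 lay at -0.34 and -0.27, and Uqcrh, whose deposited values were the highest of the complex, at 0.13.

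Uqcrb, a small subunit that binds near the quinone site, lay furthest in the other direction. It had 43.9, 13.5 and 30.9 normalized counts in Ly6C+ and 16.7, 6.81 and 10.5 in Ly6C-, from 130 and 33 reads in all. Ly6C+ library 2 lay within the Ly6C- range, and the log2 fold change of 1.24 (95% confidence interval 0.25 to 2.22) missed the threshold at a limma adjusted p of 0.0870. Leaving out that library (adjusted p = 0.0227) or Ly6C- library 1 (0.0328) brought it past the threshold, and so did the replicate number as a block (limma adjusted p = 0.0126, edgeR adjusted p = 0.00883). The 3' end of Uqcrb has 3 near-identical pseudogene copies among annotated transcripts, so reads could have been lost or shared in the counting.

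Complex IV, cytochrome c oxidase, had no member that passed the test. Its 12 tested members had a median log2 fold change of -0.01, and 6 lay below 0 (50%, against 50.1% of all tested genes). The median was -0.10 without Ly6C- library 1 and 0.03 without Ly6C- library 3. Cox4i1, the nuclear subunit through which ATP is known to regulate the enzyme, had 1302, 1153 and 1113 normalized counts in Ly6C+ and 1116, 1258 and 1259.9 in Ly6C-. The groups overlapped, and the log2 fold change of -0.03 had a 95% confidence interval of -0.37 to 0.31. Cox6a1, with the highest deposited values of the complex, lay at -0.12, Cox5b at -0.10, and Cox7b, the highest of the complex, at 0.25.

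Cox5a, which binds Cox4 in the assembled enzyme, was the exception within complex IV. It had 156, 210.5 and 259.6 normalized counts in Ly6C+ and 272, 333 and 526 in Ly6C-. The groups did not overlap, though Ly6C+ library 3 came close to Ly6C- library 1. The means were 209 ± 51.8 and 377 ± 133 (SD, n = 3 each), and the log2 fold change was -0.82 (SE 0.26, 95% confidence interval -1.40 to -0.25). Its limma adjusted p of 0.0520 lay just outside the threshold, and it passed in 9 of 17 alternatives, among them edgeR (adjusted p = 0.0396), DESeq2 (adjusted p = 0.0125), the replicate number as a block (limma adjusted p = 0.00236), and limma without Ly6C+ library 3 (adjusted p = 0.0416) or Ly6C- library 1 (0.0142). The 3' end of Cox5a has 1 near-identical pseudogene copy.

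Several complex IV subunits have isoforms that are known for particular tissues or for low oxygen. Cox4i2, the isoform of Cox4i1 known for low oxygen, had between 0 and 1.5 normalized counts in Ly6C+ and between 1.31 and 2.95 in Ly6C-, too low to test. The testis isoform Cox6b2 had 7 reads in Ly6C+ and 15 in Ly6C-, whereas its widely expressed counterpart Cox6b1 had a log2 fold change of 0.01. The muscle and heart isoform Cox7a1 had 12 and 13 reads, and Cox7a2 and Cox7a2l, its counterparts, had log2 fold changes of -0.37 and 0.02. Cox8a lay at 0.12. Ndufa4l2, a hypoxia-linked relative of Ndufa4, had 200.1, 105 and 198 in Ly6C+ and 263, 183 and 267 in Ly6C-. These overlapped, at a log2 fold change of -0.54 (limma adjusted p = 0.208), while Ndufa4 itself had a log2 fold change of 0.02.

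Complex V, the ATP synthase, had 1 called member among 16 tested (6.25% lower, against 7.66% of all tested genes). The median was -0.18, and 11 of the 16 lay below 0 (68.8%, against 50.1% of all tested genes). Atp5b, the catalytic beta subunit of the F1 head (chr10:128083273-128090391, plus strand, mm10), had 1260.1, 1538 and 1636 normalized counts in Ly6C+ and 1904, 2396 and 2593 in Ly6C-. All Ly6C- libraries lay above all Ly6C+ libraries, with means of 1478 ± 195 and 2298 ± 355 (SD, n = 3 each). The log2 fold change was -0.63 (SE 0.18, 95% confidence interval -1.03 to -0.24, limma adjusted p = 0.0330). The call was lost without Ly6C+ library 1 (adjusted p = 0.134), Ly6C+ library 2 (0.0772), Ly6C- library 2 (0.127) or Ly6C- library 3 (0.0810). The small RNA genes Snord59a and Mir677 lie within Atp5b on the same strand.

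Of the 5 F1 head subunits, Atp5b included, 4 lay below 0 (80%, against 64.9% of all tested members), with a median of -0.28. This grouping was not planned. Atp5a1, the alpha subunit that alternates with beta in the head, had 803, 853 and 889 normalized counts in Ly6C+ and 959, 1058 and 1162 in Ly6C-. The groups did not overlap, but the log2 fold change of -0.32 (95% confidence interval -0.65 to 0.02) missed the test (limma adjusted p = 0.203); it passed with library totals (adjusted p = 0.0329) and quantile normalization (0.0429). Atp5c1 and Atp5d, the gamma and delta subunits of the central stalk, had log2 fold changes of -0.28 and -0.24, and Atp5e, the epsilon subunit, had 0.35.

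The c-ring, the rotor driven by protons, is built from 1 protein encoded by 3 genes, which gave unlike values. Atp5g3 had 1192, 1006 and 1117 normalized counts in Ly6C+ and 1068, 1516 and 1906 in Ly6C- (log2 fold change -0.40, limma adjusted p = 0.245, and 0.0434 without Ly6C- library 1). Atp5g2 had 3.66, 12.0 and 11.6 in Ly6C+ and 4.92, 8.51 and 11.8 in Ly6C-, with a log2 fold change of 0.03. Atp5g1 had 27.4, 30.1 and 17.8 in Ly6C+ and 33.5, 0 and 21 in Ly6C-. Its log2 fold change of 1.48, the highest of all members (95% confidence interval -0.77 to 3.74), rested on the 0 in Ly6C- library 2, and was -0.11 without that library. Atp5j, a peripheral stalk subunit chosen after its values were seen, had 138, 157 and 95 in Ly6C+ and 127, 88.5 and 53.8 in Ly6C- (log2 fold change 0.58, limma adjusted p = 0.238, and 0.0494 without Ly6C- library 1). It shares its start region with Gabpa, which overlaps it on the other strand. Atp5l, a small membrane subunit, was not tested, with 19 reads in Ly6C+ and 9 in Ly6C-. Annotated transcripts of 12 other genes hold a near-identical copy of its 3' end.

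**Figure D2:**
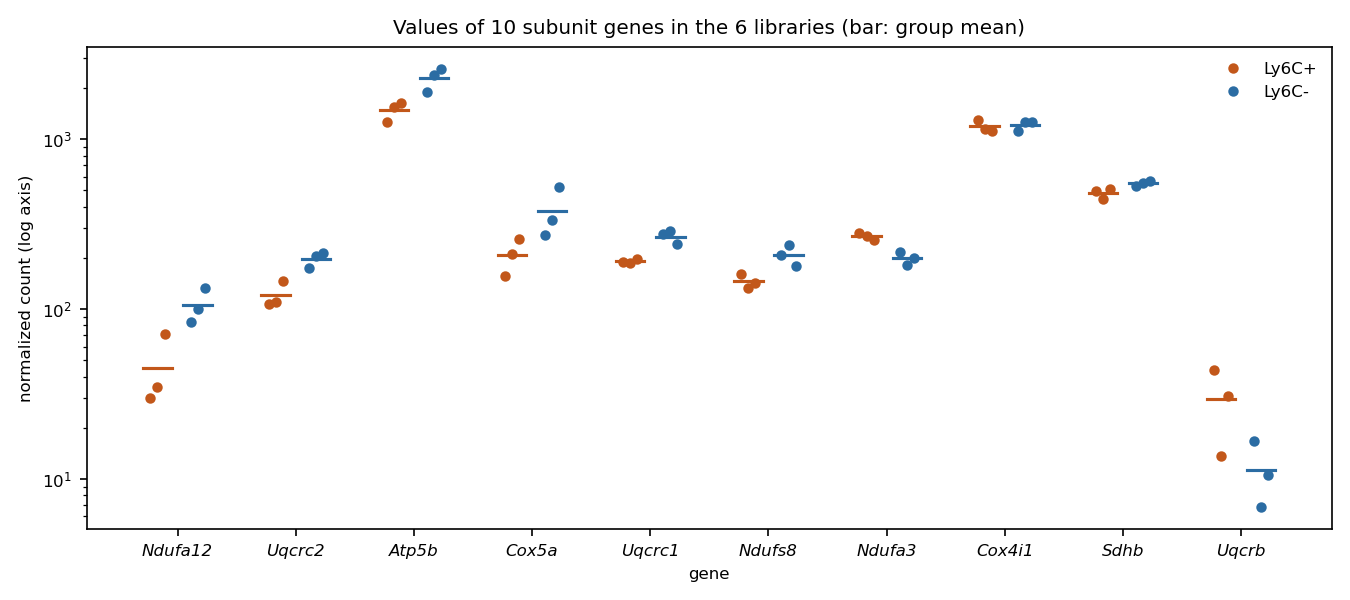
Normalized counts (log axis) of 10 members in each of the 3 Ly6C+ and 3 Ly6C- libraries, 1 point per library. Ndufa12, Uqcrc2 and Atp5b, and also Cox5a, Uqcrc1 and Ndufs8, are lower in every Ly6C+ library, Ndufa3 is higher in every one, and Cox4i1 and Uqcrb overlap between the groups.

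Summing the normalized counts of all 78 members gave 24053, 25072 and 24378 in Ly6C+ and 25496, 27614 and 29270.2 in Ly6C-. The groups did not overlap, at 24501 ± 520.4 and 27460.1 ± 1892 (SD, n = 3 each), and Ly6C- library 3 was the highest. Leaving Atp5b out, the sums ran from 22742 to 23534 in Ly6C+ and from 23591 to 26677 in Ly6C-, which left them barely apart. By complex, the sums of complexes III and V did not overlap: complex III had 1973 to 2142 in Ly6C+ and 2302 to 2697 in Ly6C-, and complex V had 7461 to 8038 and 8577 to 10023. Those of complexes I, II and IV overlapped, with 8078 to 8593 against 8365 to 8888 for complex I, 1125 to 1292 against 1217 to 1392 for complex II, and 5073 to 5389 against 5035 to 6566 for complex IV. As a share of all recovered reads, members made up 1.40%, 1.46% and 1.47% in Ly6C+ and 1.77%, 1.89% and 1.90% in Ly6C-. On this scale the groups did not overlap for any complex. Complex I had 0.480% to 0.501% in Ly6C+ and 0.557% to 0.607% in Ly6C-. Complex II had 0.0654% to 0.0777% and 0.0842% to 0.0902%, and complex IV 0.295% to 0.324% and 0.349% to 0.426%. The deposited normalized counts summed to a larger total in each Ly6C+ library (1661674 to 1718950) than in each Ly6C- library (1444249 to 1542972), so shares and sums are not on 1 scale. Scaling by library totals instead moved the median of all genes to -0.19 and that of the members to -0.30, 0.11 below it, against 0.10 below it in the deposited scaling. With that scaling 11 members were called lower and none higher, where 20.1% of all tested genes were called, 12.6% lower and 7.52% higher; 37.4% of the calls over all genes were then higher ones, against 55.1% with the deposited scaling. With the replicate number as a block, 6 members were called lower and 1, Uqcrb, higher, where 21.6% of all tested genes were called, 10.1% lower and 11.6% higher.

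**Figure D3:**
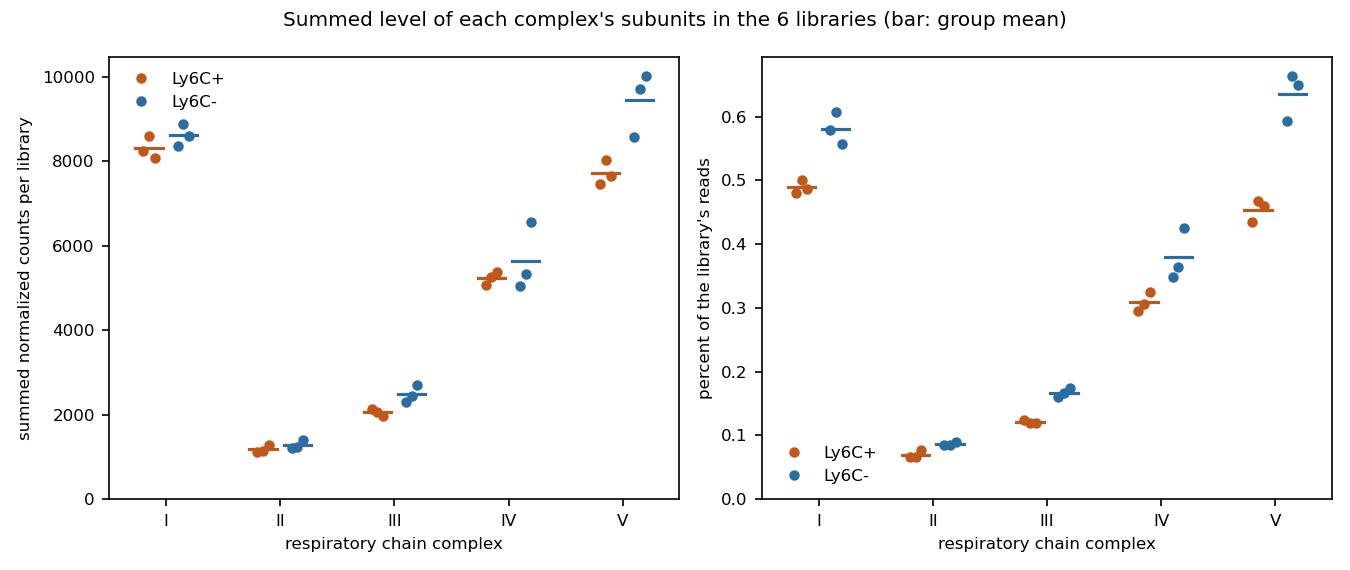
Summed normalized counts (left) and share of all recovered reads in percent (right) of the members of each complex, 1 point per library, for 3 Ly6C+ and 3 Ly6C- libraries. On the normalized scale the groups separate for complexes III and V and overlap for complexes I, II and IV. As a share of reads they separate for every complex.

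Genes that build, feed and regulate the chain were examined as lists. Of 35 tested assembly factors, 1 rose and 2 fell in Ly6C+, with a median of 0.04. Uqcc3, which helps assemble complex III, had 156, 137 and 105 normalized counts in Ly6C+ and 98.4, 70.6 and 68.2 in Ly6C- (log2 fold change 0.74, limma adjusted p = 0.0404). Tmem70, which helps assemble complexes I and V, had 36.0, 35.3 and 37.9 in Ly6C+ and 67.9, 74.9 and 62.9 in Ly6C- (log2 fold change -0.89, limma adjusted p = 0.00937). Cox17, the copper chaperone of complex IV, had a log2 fold change of -0.90 (limma adjusted p = 0.0206). For all 3 the groups did not overlap. The shares of the list called, 2.86% higher and 5.71% lower, were below those of all tested genes, 9.41% and 7.66%.

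Genes of the tricarboxylic acid cycle and pyruvate dehydrogenase supply the chain with electrons. Among 14 tested, 1 fell (7.14%, against 7.66% of all tested genes) and none rose (against 9.41%). Mdh2, the mitochondrial malate dehydrogenase, had 259, 313 and 382 normalized counts in Ly6C+ and 486, 468 and 747 in Ly6C-, a log2 fold change of -0.82 (limma adjusted p = 0.0246). The median of the list was -0.25, and 12 of 14 lay below 0. The 64 tested mitochondrial ribosomal proteins, which translate the mitochondrially encoded subunits, had no call in either direction and a median of -0.13. Among 12 tested regulators of mitochondrial biogenesis none passed the test, and the median was 0.05. Nrf1, the factor of the NRF1 letters, had a log2 fold change of -0.58 and Esrra, an orphan nuclear receptor that acts on respiratory genes, -0.56; Gabpa, Yy1 and Tfam had 0.07, 0.39 and -0.11. Nrf1 and Esrra were lower in every Ly6C+ library, and none of the 5, named after their values were seen, was called.

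Other lists gave a setting for these values, of which the hypoxia-driven one also held genes acting on mitochondria. The 77 tested cytosolic ribosomal proteins build the ribosomes that translate the nuclear-encoded subunits. They had 5 higher and 1 lower call (6.49% and 1.30%, against 9.41% and 7.66% of all tested genes) and a median of 0.17. Rpl22, Rps29, Rpl39 and Rpl22l1 were among the higher ones, with log2 fold changes of 0.91, 0.66, 1.54 and 1.12, and Rps27l was the lower one, at -0.62. The 17 core proteasome subunits had no call, with a median of -0.35 and 16 of 17 below 0. The 19 tested hypoxia-driven genes, of glycolysis and other functions, had 1 higher and 10 lower calls (5.26% and 52.6%) and a median of -0.79. Vegfa, an angiogenic factor, had a log2 fold change of -1.57, and Slc16a3, a lactate exporter, -1.27. Egln3, an oxygen-sensing hydroxylase, had -2.62, and Car9, a carbonic anhydrase, -2.79. Hk2, a hexokinase, rose, at 0.59. The median of the members, -0.10, was thus nearer 0 than those of the proteasome and the hypoxia-driven list, and on the other side of 0 from that of the cytosolic ribosome. Across 71 tested members with an annotated transcript, log2 fold change was lower for longer transcripts (Spearman's rho -0.33, a description across genes of the same 6 libraries), whereas rho was 0.01 across 9537 tested genes.

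**Figure D4:**
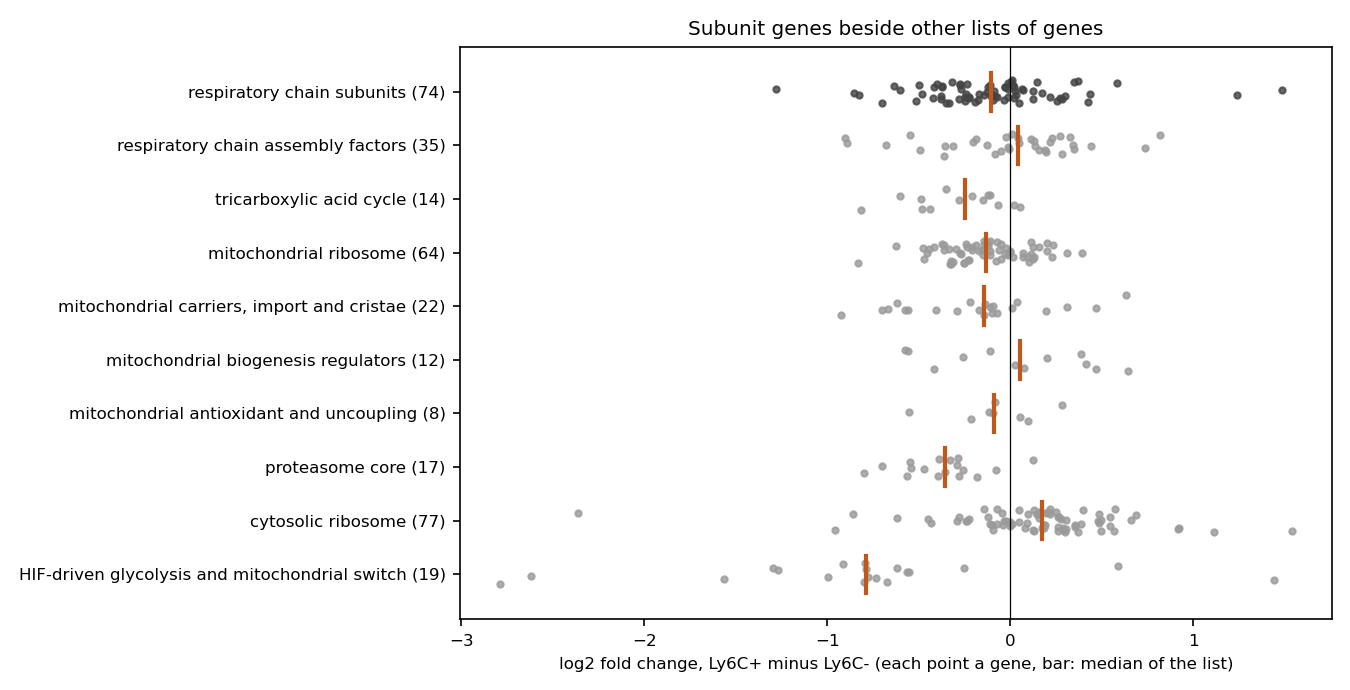
Log2 fold change (Ly6C+ minus Ly6C-) of each tested gene, grouped by list, with the median of each list as a bar. The median of the respiratory chain subunits is -0.10. The hypoxia-driven genes sit lowest with a median of -0.79, and the cytosolic ribosome sits above 0 with a median of 0.17.

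Markers of other cell types also differed between the groups, and their part in the values of the members was not tested. Of 8 epithelial markers, all in the table, the summed level was 12.8 to 47.9 normalized counts in Ly6C+ and 109 to 356 in Ly6C-; Epcam was at 0 in 3 of the 6 libraries and reached 2.95. Muscle markers (7 of 8 in the table), a tissue rich in respiratory chain proteins, summed to 28.6 to 48.9 in Ly6C+ and 118 to 791 in Ly6C-. Most of this came from Des, while Ckm was at 0 in every Ly6C+ library and at most 2.95 in Ly6C-, and Myh4 was at most 0.851. Pericyte and smooth muscle markers (8 of 8) summed to 174 to 234 in Ly6C+ and 808 to 900.0 in Ly6C-. Of the 7 tested, 5 were called lower and 1 higher in Ly6C+ (71.4% and 14.3%, against 7.66% and 9.41% of all tested genes). Leukocyte markers (8 of 10) summed to 202 to 1153 in Ly6C+ and 55.3 to 107 in Ly6C-, and Ptprc was at 0 in every Ly6C- library and at most 4.88 in Ly6C+. Fat cell markers (4 of 8) summed to 78.0 to 142 in Ly6C+ and 9.36 to 18.7 in Ly6C-, mostly from Fabp4, with Adipoq at most 0.773. Endothelial markers (3 of 6) summed to 19.5 to 37.2 in Ly6C+ and 14.4 to 99.5 in Ly6C-. The 2 tested ones went opposite ways: 1 was called higher (log2 fold change 3.32) and 1 lower (-2.58). The highest muscle and epithelial sums were in Ly6C- library 1, and the highest pericyte and smooth muscle sum was in Ly6C- library 2.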

How the data were processed

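Gene expression was measured from mRNA 3' ends in 3 Ly6C+ and 3 Ly6C- CAF libraries, grouped by sample title. The authors deposited 1 table of normalized counts (a signal, not raw counts) of 12235 genes. Per the submitters' processing notes, bcl2fastq, STAR 2.4.2a, HTSeq and mm10 were used; the scaling tool, strand setting and annotation are not given in the sources used here. Dividing each library by the value of 1 read gave whole reads for 100% of values (within 0.001).

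Genes were tested in R 4.3.3 by limma 3.58.1, letting the variance follow the mean, on log2(deposited normalized count + 1), for genes with a mean of at least 5, two-sided, Benjamini-Hochberg adjusted over 9646 genes, with a threshold of 0.05; 1647 genes (17.1%) passed. Fold changes are on this scale, which can understate those of low genes. It can also overstate them: Atp5g1, with a 0 in Ly6C- library 2, had 1.48, against 0.52 by edgeR and 0.46 by DESeq2. The count tests on recovered reads were edgeR 4.0.16, which called 1715 genes, and DESeq2 1.42.0, which called 1549. Scripts were tested on simulated data. Alternatives (17) covered the pseudocount (0.5, 5), the filter, the scaling, the replicate number, each library left out and the test.

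GENCODE M21 matched 75 of 78 members. Near-identical copies (18 members) were those with at least 95% identity over 100 or more of the last 300 bases (blastn 2.17.0). They were sought among the annotated transcripts of other genes, not in the whole genome. Reporting the members without such copies was added after seeing the data. Members and lists were chosen with earlier results of these data known. Named genes were those called, the extremes, highest values and catalytic subunits of each complex, isoforms, untested members, and up to 4 called genes per list and direction; others were named after their values were seen. The values of 1 gene are not reported here.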

Additional observations from a re-analysis of the deposited data

How the results depend on the processing

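Each of the 3 called members kept its call in all 11 alternatives that used every library, and all losses came from leaving out a library. Over 74 members and 17 alternatives, 1215 values stayed on their side of the threshold, 11 (of 3 genes) lost the call and 29 (of 11 genes) gained one. Of the 1215, 1140 kept their sign and 75 (of 27 genes) changed it, all of them uncalled in both analyses; 0 called values changed sign. There were 0 lower members without Ly6C+ library 1, Ly6C+ library 2 or Ly6C- library 2, and 5 lower and 2 higher without Ly6C- library 1. Leaving out 1 library in turn gave 0 to 5 lower and 0 to 2 higher members. Calls over all genes ran from 1126 to 1736, against 1647 with every library. The medians then ran from -0.16 to -0.051 for all members, from -0.15 to -0.040 for complex I, from -0.17 to -0.075 for complex II, from -0.42 to -0.24 for complex III, from -0.10 to 0.03 for complex IV and from -0.25 to -0.14 for complex V. Library totals gave 11 lower members and medians of -0.30 (all), -0.28 (complex I), -0.34 (II), -0.55 (III), -0.20 (IV) and -0.38 (V), with a shift of all genes of -0.19; quantile normalization gave -0.15 for all members.

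The replicate numbers were used as a block although the labels do not say that they pair the samples. Same-numbered libraries had correlated deviations of 0.13, 0.05 and 0.17, and each library correlated best with its own number, a hint from the data only. With the replicate block, limma called 2088 genes and 1 higher and 6 lower members, and edgeR with the block also called 1 higher and 6 lower. Without the 3' end copies, 54 tested members had a median of -0.11, 0 higher and 3 lower. Members with few reads, such as Atp5g1 and Uqcrb, have wide intervals: read depth limits what can be said of them.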

Other observations

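Among 22 tested genes of mitochondrial carriers, protein import and cristae, 3 fell in Ly6C+ (13.6%, against 7.66% of all tested genes). None rose (against 9.41%), and the median was -0.14. Vdac2 and Vdac1, channels of the outer mitochondrial membrane, had log2 fold changes of -0.92 and -0.70 (limma adjusted p = 0.0104 and 0.0338). Vdac2 had 196, 240.5 and 259 normalized counts in Ly6C+ and 361, 396 and 585 in Ly6C-, and Vdac1 had 189.7, 206 and 219 against 278, 298 and 448. Timm50, a receptor of the inner membrane import machinery, had a log2 fold change of -0.67 (limma adjusted p = 0.0442). In none of the 3 did the groups overlap. Among 8 tested mitochondrial antioxidant and uncoupling genes, none passed the test, and the median was -0.09. Ucp2, an inner membrane carrier of the uncoupling protein family, had 269, 294 and 168 in Ly6C+ and 437, 421 and 229 in Ly6C- (log2 fold change -0.55, limma adjusted p = 0.225), with overlapping groups.

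Members lay on 19 chromosomes, with 3 on X. By annotation, 12 members overlap another gene on the same strand and 26 one on the other strand. The 17 tested members with a near-identical copy of the 3' end had a median log2 fold change of -0.01.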
